A study of Mus musculus with 10 samples.

Results

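Transcripts of 8 enzymes that use arginine, make nitric oxide or build and break down polyamines were followed in tumour-associated macrophages of mice given JHU083 or vehicle. The genes were Nos2, Ass1, Asl, Odc1, Srm, Sms, Sat1 and Oat, taken by symbol, and each matched 1 locus of the 46957 in the tables. BALB/cJ mice carried 4T1 tumours, a mouse mammary carcinoma line, in the mammary fat pad. JHU083, a prodrug of the glutamine antagonist 6-diazo-5-oxo-L-norleucine, was dosed at 1 mg/kg between days 7 and 13 in 5 samples, and the 5 vehicle samples came from mice given PBS. On day 14, live CD45+ CD11b+ F4/80+ cells that lacked CD8, Ly6C and Ly6G were sorted, and their polyadenylated RNA was sequenced. The age of the mice and whether a sample pools mice are not given in the sources used here, so p-values measure the spread between these samples. The comparison asks where the use of arginine shifts when glutamine metabolism is blocked.

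Arginine has competing fates in macrophages. It can be hydrolysed to urea and ornithine, whereas inducible nitric oxide synthase oxidises it to nitric oxide and citrulline, which Ass1 and Asl can turn back into arginine. Ornithine feeds the polyamines putrescine, spermidine and spermine through Odc1, Srm and Sms, or is converted by Oat towards proline and glutamate, while Sat1 acetylates polyamines for breakdown or export. High Nos2 is a classical mark of macrophages activated by interferon and bacterial products.

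The libraries held 11147870 to 14575932 fragments in vehicle and 13638381 to 15740701 in JHU083. In the shallowest of them, 3 fragments correspond to 0.269 CPM (fragments scaled to a common library size), and every member had at least 104 fragments in every sample. Mitochondrial transcripts made up 1.53% to 2.09% of fragments in vehicle and 2.14% to 2.44% in JHU083. In 3 vehicle samples and 2 JHU083 samples no fragment was listed for the ribosomal RNA loci Rn18s-rs5 and Gm42418, which elsewhere made up 2.87% to 5.59%, so results are also given within these sets of samples. The macrophage list was high throughout and higher in JHU083, with a summed 12200 to 13556 CPM in vehicle and 13995 to 16127 CPM in JHU083; 4 of its 8 genes rose (Adgre1, Csf1r, Mertk and Mrc1, by 0.63, 0.51, 0.97 and 0.78 on the log2 scale) and none fell. Markers of other cells also moved with treatment. All 6 tumour epithelial markers fell (summed 262 to 599 CPM in vehicle, 89.2 to 187 CPM in JHU083). The endothelial list summed to 123 to 213 CPM in vehicle and 33.5 to 79.9 CPM in JHU083, with 1 of 3 tested genes lower, and 4 of 6 fibroblast genes were lower (73.0 to 169 against 17.4 to 84.8 CPM). The T cell list was higher (14.5 to 18.4 against 26.7 to 42.1 CPM) through Cd4, the only member that could be tested, and no marker was at 0 in all samples. The T cell genes Cd3e, Cd3d, Cd3g, Cd8a and Trac had means of only 0.52, 0.31, 0.56, 0.17 and 0.26 CPM in vehicle. In JHU083 these means were 0.24, 0.32, 0.92, 0.16 and 0.45 CPM. The summed neutrophil list overlapped between groups (100.4 to 117 against 96.5 to 145 CPM), but S100a8 and S100a9 fell (log2 fold changes of -1.40 and -2.18) and Csf3r rose (0.53). Among eosinophil, mast cell and basophil markers, Siglecf and Cpa3 were higher and Mcpt4 lower, with mean levels of 5.91, 3.07 and 2.19 CPM in JHU083. Their part in the results on the enzymes was not tested.

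Of the 8 enzyme genes, all were tested, and 5 differed between the groups at an adjusted p under 0.05 (edgeR's quasi-likelihood test with Benjamini-Hochberg adjustment over all loci, also used for every adjusted p of a gene given here). Sat1 rose, Nos2, Ass1, Odc1 and Srm fell, and Asl, Sms and Oat did not pass. Across all 12501 loci tested, 36.7% were called, 18.4% higher and 18.3% lower (2296 and 2293 loci). With scaling to library size only, these became 1564 higher and 3141 lower. The median log2 fold change was -0.39 over the members and 0.01 over all loci, and the median absolute value was 0.45 and 0.26. The 5 called members were also those whose groups did not overlap, against 22.3% of all loci tested (11.2% with JHU083 higher and 11.1% with JHU083 lower). In sorted bulk cells, fewer cells with a transcript and less of it per cell cannot be told apart.

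**Figure D1:**
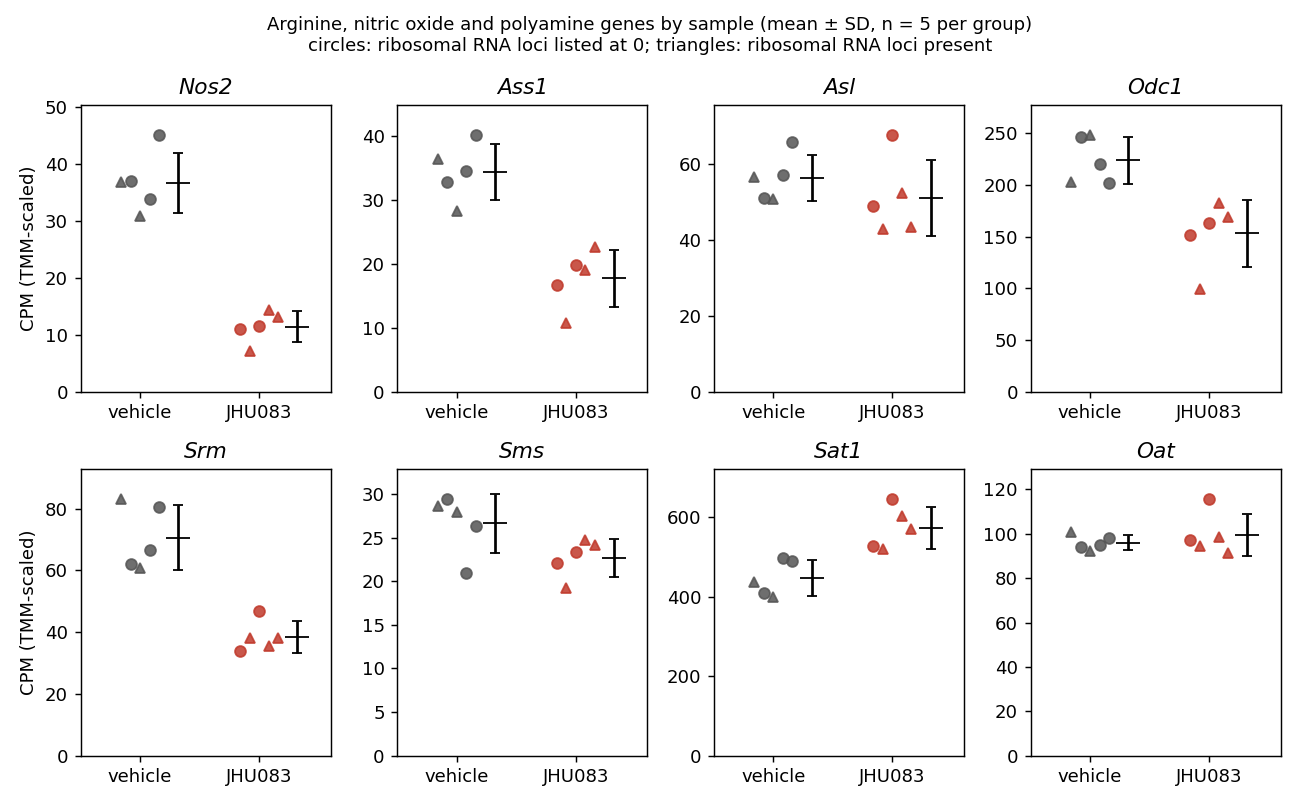
CPM on TMM-scaled library sizes (vertical axes, from 0) of the 8 members in each vehicle (grey) and JHU083 (red) sample, with the mean and SD of each group beside the points; circles are samples in which the ribosomal RNA loci are listed at 0 and triangles are the others. The groups do not overlap for Nos2, Ass1, Odc1, Srm and Sat1.

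In the nitric oxide branch, the synthase Nos2 and the first enzyme of citrulline recycling, Ass1, fell, while Asl did not pass. Nos2, inducible nitric oxide synthase (XLOC_005704; GRCm38 chromosome 11, 78920787 to 78960254, plus strand), had 36.7, 37.0, 30.9, 33.8 and 44.9 CPM in vehicle replicates 1 to 5. It had 11.0, 7.13, 11.5, 14.4 and 13.2 CPM in JHU083 replicates 1 to 5. The highest treated sample stood at less than the lowest control. Nos2 fell from a mean of 36.7 ± 5.25 CPM to one of 11.4 ± 2.75 CPM (SD over 5 samples), which is -1.68 ± 0.16 (SE) as a log2 fold change, with an adjusted p of 6.34e-06, or 3.21-fold lower. This was the change of largest size among the 8 genes. Within the sets with the ribosomal loci at 0 and present it was -1.77 and -1.56.

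Ass1, argininosuccinate synthase, which joins citrulline to aspartate (XLOC_018841; chromosome 2, 31470207 to 31520672, plus strand), had 36.4, 32.8, 28.3, 34.6 and 40.1 CPM in vehicle replicates 1 to 5. In JHU083 replicates 1 to 5 it had 16.6, 10.8, 19.8, 19.1 and 22.6 CPM. The groups did not overlap. Ass1 fell from a mean of 34.4 ± 4.37 CPM to one of 17.8 ± 4.46 CPM (SD over 5 samples), which is -0.95 ± 0.16 (SE) as a log2 fold change, with an adjusted p of 0.000451. Vehicle replicate 5 was the highest and vehicle replicate 3 the lowest control for both Nos2 and Ass1, and JHU083 replicate 2 was the lowest treated sample for both. Within the sets with the ribosomal loci at 0 and present, the change of Ass1 was -0.97 and -0.90.

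Asl, argininosuccinate lyase, which releases arginine in the next step (XLOC_030468; chromosome 5, 130011258 to 130029247, minus strand), had 56.6, 51.1, 50.8, 57.2 and 66.0 CPM in vehicle replicates 1 to 5. It had 48.9, 42.8, 67.6, 52.5 and 43.5 CPM in JHU083 replicates 1 to 5. The treated replicates 1, 2 and 5 lay below every control and replicate 3 lay above every control. The log2 fold change of Asl was -0.14 ± 0.12 (SE, n = 5, adjusted p = 0.38). Without JHU083 replicate 3 it was -0.26 with an adjusted p of 0.0321 (0.0321 to 0.985 over the alternatives), and with 1 sample left out the change ran from -0.26 to -0.082, the smallest without vehicle replicate 5 and nearly as small without JHU083 replicate 2 or 5 (-0.084 and -0.087).

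Promoter sequences of the enzymes in RefSeq (GRCm38.p6) were matched by symbol for 5 of the 8 members, Ass1, Odc1, Sms, Sat1 and Oat; Nos2, Asl and Srm had no entry. The 250 bases before the annotated start are shown for Ass1 and Odc1, which fell, and for Sat1, which rose, from 5′ to 3′ on the strand of the gene. The reference is of another strain than the mice. Capitals mark matches on either strand to the E-box CACGTG, the core bound by Myc and related factors, and to the GC box GGGCGG; the patterns do not overlap here.
Ass1, chr2:31470020-31470269, plus strand: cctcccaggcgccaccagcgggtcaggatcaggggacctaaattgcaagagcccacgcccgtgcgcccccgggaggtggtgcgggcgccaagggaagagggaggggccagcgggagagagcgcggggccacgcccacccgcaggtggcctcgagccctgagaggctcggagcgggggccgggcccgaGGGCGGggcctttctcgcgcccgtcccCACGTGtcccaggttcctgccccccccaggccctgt
Odc1, chr12:17544623-17544872, plus strand: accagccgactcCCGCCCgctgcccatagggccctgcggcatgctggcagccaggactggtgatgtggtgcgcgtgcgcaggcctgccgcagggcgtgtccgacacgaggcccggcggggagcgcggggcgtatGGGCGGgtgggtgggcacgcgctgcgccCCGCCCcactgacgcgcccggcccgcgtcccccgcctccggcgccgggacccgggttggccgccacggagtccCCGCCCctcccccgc
Sat1, chrX:155216450-155216699, minus strand: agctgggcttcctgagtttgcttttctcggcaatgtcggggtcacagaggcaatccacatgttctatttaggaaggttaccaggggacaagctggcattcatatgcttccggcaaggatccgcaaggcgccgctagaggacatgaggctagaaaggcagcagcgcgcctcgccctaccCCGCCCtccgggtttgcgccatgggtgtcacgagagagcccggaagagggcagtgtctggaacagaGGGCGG
Ass1 held 1 E-box, whose first base lay 36 bases before the start, and 1 GC box. Odc1 held 4 GC boxes and Sat1 held 2, and neither had CACGTG in this window. Of the 2 annotated Sms starts, the one on chromosome X whose window runs from 157492288 to 157492537 held an E-box, 196 bases before the start. An E-box was present in 6.02% of the 32851 promoter windows of this length and a GC box in 32.7%. The gamma-activated sequence TTCNNNGAA, a pattern found at interferon-responsive genes, was in none of the windows of these 5 genes and in 7.02% of all windows. GENCODE M21 places the gene starts of Ass1 and Odc1 further upstream, within these windows, so that by this annotation the E-box of Ass1 lies after the gene start, inside the gene.

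In the polyamine branch, Odc1 and Srm of synthesis fell, Sms did not pass, and Sat1, the acetyltransferase of breakdown, rose. Odc1, ornithine decarboxylase, the step from ornithine to putrescine (XLOC_007849; chromosome 12, 17544794 to 17551505, plus strand), had 203, 247, 248, 220 and 202 CPM in vehicle replicates 1 to 5. In JHU083 replicates 1 to 5 it had 151, 99.5, 164, 183 and 169 CPM. No treated sample reached the lowest control, and replicate 2 was the lowest. Odc1 fell from a mean of 224 ± 22.6 CPM to one of 153 ± 32.2 CPM (SD over 5 samples), which is -0.55 ± 0.13 (SE) as a log2 fold change, with an adjusted p of 0.0058. The change was -0.50 (adjusted p = 0.0415) among samples with the ribosomal loci at 0 and -0.59 (adjusted p = 0.0644) among the others, the highest adjusted p of any alternative and the one that ended the call.

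Srm, spermidine synthase (XLOC_026156; chromosome 4, 148591503 to 148594993, plus strand), had 83.0, 61.9, 60.9, 66.7 and 80.5 CPM in vehicle replicates 1 to 5. It had 33.8, 38.0, 46.9, 35.5 and 38.0 CPM in JHU083 replicates 1 to 5. The groups were clearly apart. Srm fell from a mean of 70.6 ± 10.4 CPM to one of 38.4 ± 5.07 CPM (SD over 5 samples), which is -0.88 ± 0.11 (SE) as a log2 fold change, with an adjusted p of 6.08e-05. Within the sets with the ribosomal loci at 0 and present it was -0.79 and -0.96.

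Sms, spermine synthase, the step after Srm (XLOC_045306; chromosome X, 157443855 to 157492287, minus strand), had 28.7, 29.4, 27.9, 20.9 and 26.4 CPM in vehicle replicates 1 to 5. In JHU083 replicates 1 to 5 it had 22.1, 19.3, 23.3, 24.7 and 24.2 CPM. Only vehicle replicate 4 lay within the treated range. The log2 fold change of Sms was -0.23 ± 0.11 (SE, n = 5, adjusted p = 0.0972). Without vehicle replicate 4 it was -0.31 (adjusted p = 0.0247), and with library-size scaling -0.32 (adjusted p = 0.0296), while over the alternatives the adjusted p ran from 0.0247 to 0.586.

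Sat1, spermidine and spermine acetyltransferase (XLOC_045295; chromosome X, 155213132 to 155216449, minus strand), had 438, 408, 399.6, 498 and 488 CPM in vehicle replicates 1 to 5. It had 528, 519, 644, 601 and 570 CPM in JHU083 replicates 1 to 5. Every treated sample lay above every control. Sat1 rose from a mean of 446 ± 45.2 CPM to one of 573 ± 52.0 CPM (SD over 5 samples), which is 0.36 ± 0.09 (SE) as a log2 fold change, with an adjusted p of 0.00489. Within the set with the ribosomal loci at 0 the change was 0.34 with the call lost (adjusted p = 0.164, the highest of the alternatives), and in the other set 0.42 (adjusted p = 0.0317).

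Oat, ornithine aminotransferase, the mitochondrial link from ornithine to proline and glutamate (XLOC_038174; chromosome 7, 132557478 to 132576398, minus strand), had 101, 94.0, 92.3, 94.9 and 98.1 CPM in vehicle replicates 1 to 5. It had 97.1, 94.6, 116, 98.6 and 91.5 CPM in JHU083 replicates 1 to 5. The groups covered nearly the same range apart from JHU083 replicate 3. The log2 fold change of Oat was 0.05 ± 0.07 (SE, n = 5, adjusted p = 0.624).

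**Figure D2:**
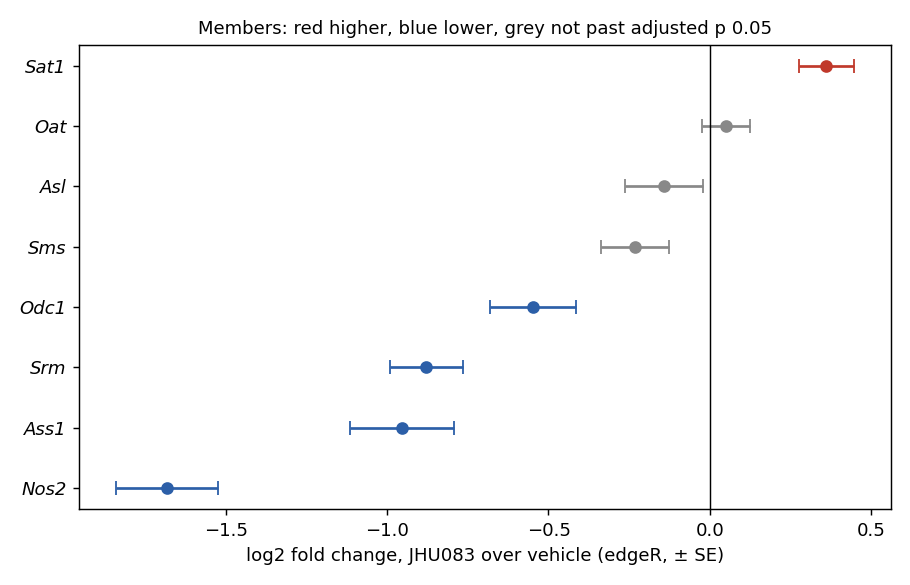
Log2 fold change of JHU083 over vehicle (horizontal axis, edgeR, bars are ± SE) for the 8 members, in order of size. Sat1 lies to the right of 0 and past the threshold (red), Nos2, Ass1, Srm and Odc1 to the left and past it (blue), and the 3 grey genes did not pass.

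The levels of Sat1 and Odc1 can also be set against each other within each sample. The log2 ratio of Sat1 to Odc1 CPM was 0.99 ± 0.27 in vehicle and 1.92 ± 0.27 in JHU083 (SD, n = 5). All 5 treated samples were higher than every control, and the difference was 0.93. Since Sat1 was higher and Odc1 lower in every treated sample than in every control, the ratio had to separate the groups, so it is given as a description with no test of its own. JHU083 replicate 2, with the lowest Odc1, had the highest ratio at 2.38, and without it the difference was 0.82. Within the sets with the ribosomal loci at 0 and present, the differences were 0.83 and 1.05. On the FPKM scale (fragments scaled by transcript length and depth), Sat1 exceeded Odc1 by 3.97- to 5.98-fold in vehicle and by 8.13- to 13.0-fold in JHU083.

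**Figure D3:**
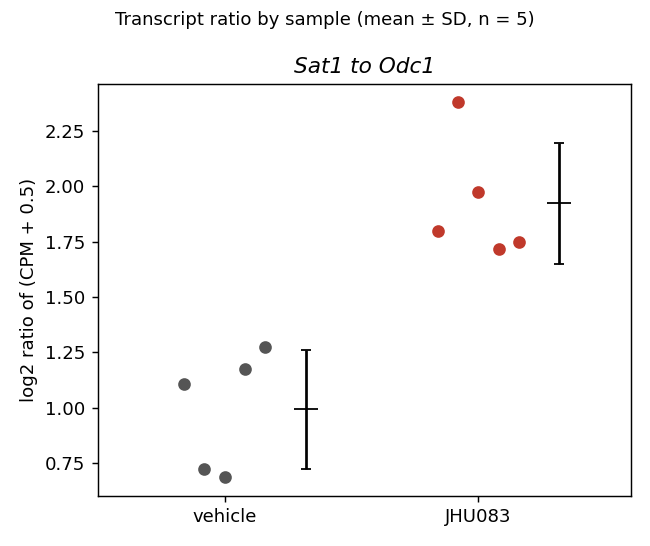
Log2 ratio of (CPM + 0.5) of Sat1 to Odc1 per sample (vertical axis) in vehicle (grey) and JHU083 (red), with mean and SD. The groups do not overlap, and JHU083 replicate 2 is the highest at 2.38.

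The order of the members by level per length changed in the middle of the list. By deposited FPKM, vehicle samples ran from Sat1 (434 ± 41.5, SD, n = 5) through Odc1 (88.1), Srm (58.1), Oat (45.5), Asl (33.2) and Ass1 (21.4) to Sms (12.3) and Nos2 (8.48). Neighbours in this order had ranges that did not overlap, except Sms and Nos2. In JHU083 the order was Sat1 (561 ± 44.3), Odc1 (60.5), Oat (47.4), Srm (31.9), Asl (30.1), Ass1 (11.0), Sms (10.2) and Nos2 (2.69). There, Odc1 with Oat, Srm with Asl and Ass1 with Sms overlapped. Oat now ranked above Srm.

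**Figure D4:**
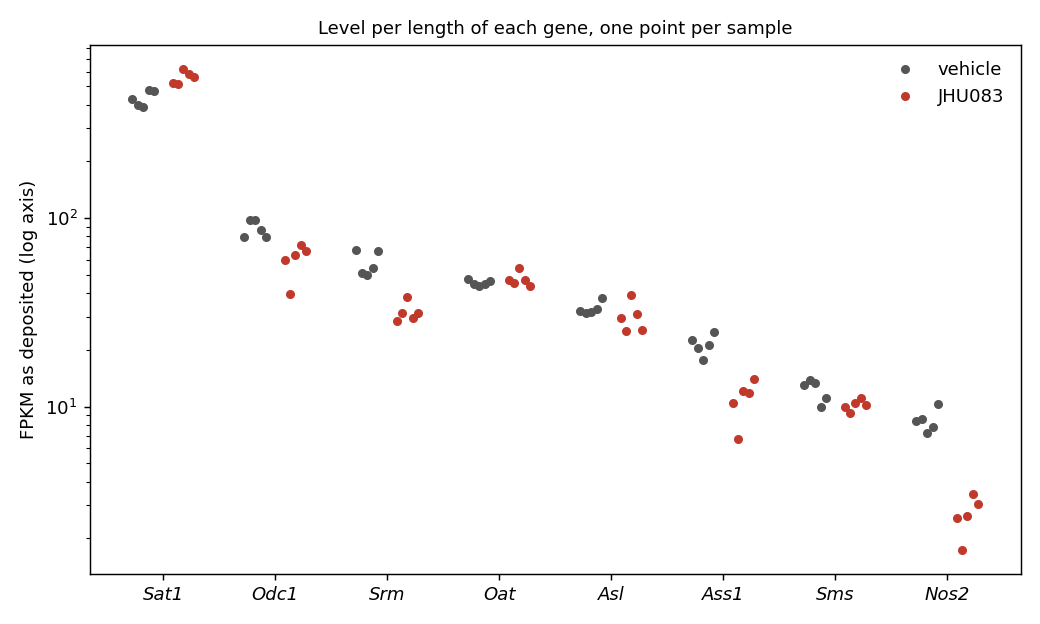
FPKM as deposited (log axis) of the 8 members in order of their vehicle mean, 1 point per sample, vehicle in grey and JHU083 in red. Sat1 lies above all others in every sample, Srm and Oat change places between the groups, and Nos2 is the lowest within every sample of both groups.

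Genes next to these enzymes in the pathway came from lists chosen for their function. Over all samples 1, 3, 4, 6 and 5 genes of the 5 lists passed, of 6, 7, 8, 19 and 12 tested, to be read against the 36.7% of all loci that were called. Among the samples with the ribosomal loci at 0 the counts were 0, 0, 1, 2 and 3, and among the other samples 2, 1, 4, 5 and 3. Calls across all loci were also fewer within these sets. They were 532 higher and 586 lower of 12718 loci tested in the first, and 1274 and 1545 of 12967 in the second. For the genes said to have lost a call in these sets and in no other alternative, the highest adjusted p over all alternatives is among those given. Of 6 tested genes for arginine and ornithine transport, 1 was lower and none higher, and 2 passed without JHU083 replicate 1 or without JHU083 replicate 2. Slc7a1, a cationic amino acid transporter, fell from a mean of 41.1 ± 4.60 CPM to one of 30.6 ± 4.49 CPM (SD over 5 samples; log2 fold change -0.43 ± 0.11 SE, adjusted p = 0.00772), a call lost with the ribosomal loci at 0 (-0.44, adjusted p = 0.0795). The inducible transporter Slc7a2 had 55.8 ± 14.1 and 81.5 ± 34.2 CPM and did not pass (0.55 ± 0.26, adjusted p = 0.112).

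Of 7 tested genes for nitric oxide synthases, their cofactor tetrahydrobiopterin and methylarginine, 2 were lower and 1 higher. Ddah2, of the dimethylarginine hydrolase family, and Prmt1, a protein arginine methyltransferase, fell by 0.77 and 0.50 on the log2 scale (adjusted p = 0.00368 and 0.00225). Ddah2 lost its call in both ribosomal sets (-0.95 with adjusted p = 0.0692 where the loci were at 0, and -0.62 with adjusted p = 0.0547 in the other). Prmt1 lost it where the loci were at 0 (-0.36, adjusted p = 0.219). Gch1, the entry enzyme of tetrahydrobiopterin synthesis, had 42.7 ± 4.31 and 44.6 ± 8.93 CPM (adjusted p = 0.733). Pts, a later enzyme of that route, was higher by 0.34 (adjusted p = 0.0349); it lost its call in 10 of 24 alternatives, among them without vehicle replicate 2, 3 or 5 or JHU083 replicate 2 or 3 (0.30, 0.30, 0.35, 0.33 and 0.24). Nos1 and Nos3, the other nitric oxide synthases, had at most 12 and 11 fragments in any sample and were not tested.

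Of 8 tested genes linking arginine and ornithine to urea, creatine, proline and glutamate, 3 were lower and 1 higher. Gatm, which takes the amidino group of arginine for creatine synthesis, rose from a mean of 1219 ± 89.5 CPM to one of 1632 ± 151 CPM (SD over 5 samples; log2 fold change 0.42 ± 0.09 SE, adjusted p = 0.003), with no overlap. Gamt, the next enzyme of creatine synthesis, fell by 0.62 (adjusted p = 0.00626). With the ribosomal loci at 0, both lost their calls: Gatm was at 0.32 (adjusted p = 0.168) and Gamt at -0.32 (adjusted p = 0.384), while in the other set Gamt was at -0.88. Among proline enzymes, Aldh18a1 of synthesis and Prodh of breakdown fell by 0.71 and 0.58 on the log2 scale (adjusted p = 2.11e-05 and 0.00734). Prodh lost its call with the ribosomal loci at 0 (-0.42, adjusted p = 0.277), and Aldh18a1 passed in both sets. The urea cycle genes Cps1 and Otc had at most 1 and 6 fragments in any sample.

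Of 19 tested genes for polyamine regulation, breakdown, transport, methionine salvage and hypusine, 3 were higher, 3 lower and 13 did not pass. Paox, which oxidises acetylated polyamines and so acts after Sat1, rose from a mean of 51.1 ± 5.56 CPM to one of 76.8 ± 14.7 CPM (SD over 5 samples; log2 fold change 0.59 ± 0.12 SE, adjusted p = 0.00196). Atp13a2, a lysosomal polyamine exporter, rose by 0.35 (adjusted p = 0.00262), and both genes separated the groups. Paox passed in both ribosomal sets and Atp13a2 in neither (0.41 with adjusted p = 0.0605 where the loci were at 0, and 0.31 with adjusted p = 0.0855 in the other). Oaz2, an antizyme that binds ornithine decarboxylase, was higher by 0.25 (adjusted p = 0.0302), but lost its call in 12 of 24 alternatives, among them without vehicle replicate 2, 3, 4 or 5 or JHU083 replicate 1 or 4 (0.23, 0.21, 0.23, 0.25, 0.25 and 0.23). Mtap, which salvages the by-product of spermidine and spermine synthesis, fell from a mean of 61.4 ± 12.6 CPM to one of 33.1 ± 3.27 CPM (SD over 5 samples; log2 fold change -0.89 ± 0.13 SE, adjusted p = 0.000156). Eif5a, the translation factor that carries the spermidine-derived residue hypusine, fell by 0.52 and Dohh, the last enzyme of hypusine synthesis, by 0.35 on the log2 scale (adjusted p = 0.00177 and 0.0175). With the ribosomal loci at 0 both lost their calls, Eif5a at -0.36 (adjusted p = 0.172) and Dohh at -0.17 (adjusted p = 0.462). Spermine oxidase Smox (adjusted p = 0.141) and the ornithine decarboxylase inhibitor Oaz1 (adjusted p = 0.0812), whose locus also lists Mir1982, did not pass. Without JHU083 replicate 3, 11 genes of this list passed in place of 6. Calls across all loci rose as well in that fit, to 2895 higher and 2929 lower of 12660 tested, from 2296 and 2293 of 12501.

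Of 12 transcription factors known to act at these genes, 3 were higher, 2 lower and 7 did not pass. Irf1, an interferon-responsive activator of Nos2, fell by 0.93 on the log2 scale (adjusted p = 1.58e-05). It had 157 to 204 CPM in vehicle and 81.1 to 118 CPM in JHU083. Myc, an activator of Odc1, fell from a mean of 50.4 ± 10.1 CPM to one of 27.3 ± 3.83 CPM (SD over 5 samples; log2 fold change -0.88 ± 0.14 SE, adjusted p = 0.000256). Klf4, a factor linked to alternative activation, rose from a mean of 88.2 ± 24.2 CPM to one of 241 ± 50.0 CPM (SD over 5 samples; log2 fold change 1.45 ± 0.18 SE, adjusted p = 4.74e-05), with no overlap. Nfe2l2, the factor of the antioxidant response, rose by 0.33 (adjusted p = 0.00551), but did not pass within either ribosomal set (0.36 with adjusted p = 0.141 where the loci were at 0, and 0.30 with adjusted p = 0.0807 in the other). Irf1, Myc and Klf4 passed in both. Hif1a was higher by 0.26 (adjusted p = 0.0421) but lost its call in 14 of 24 alternatives, among them without vehicle replicate 1, 4 or 5 or JHU083 replicate 1, 2, 4 or 5 (0.23 to 0.27). The subunits Nfkb1 and Rela, with Cebpb and Stat6, did not pass (adjusted p = 0.946, 0.576, 0.601 and 0.209).

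**Figure D5:**
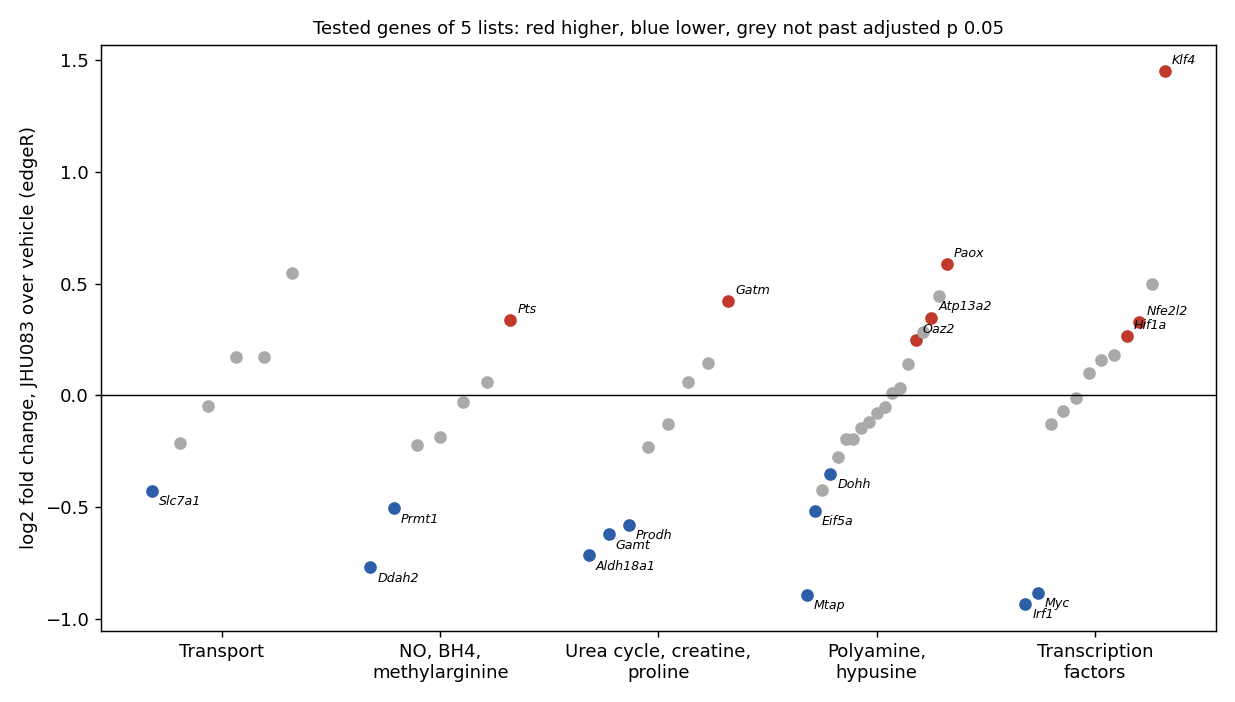
Log2 fold change of JHU083 over vehicle (vertical axis, edgeR) of each tested gene in 5 pathway lists (horizontal axis), in order of size within a list. Red genes were higher and blue genes lower past the threshold; Klf4, at 1.45, is the highest point and Irf1, at -0.93, the lowest.

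The genes most like Nos2 from sample to sample were found after the mean of each group had been subtracted. Over the 10 samples and 10039 other loci, the highest Pearson correlations with Nos2 were those of AA467197 (0.94, locus shared with Mir147), Nostrin (0.93), Il1r2 (0.93), Ndufaf6 (0.92) and Btg1 (0.92). These are descriptions with no test, of the top of a long list. The treatment difference of these genes was not always that of Nos2. Il1r2 fell by 1.81 on the log2 scale (adjusted p = 1.49e-05), whereas Nostrin rose by 0.47 (adjusted p = 0.00353).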

How the data were processed

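RNA-seq of sorted tumour-associated macrophages was compared between 5 JHU083 and 5 vehicle samples. Per the submitters' processing notes, bcl2fastq 2.17.1.14, FastQC 0.11.2 and TopHat2 2.1.1 were used; the counting program and annotation are not given in the sources used here. The authors deposited, per the file headers, a raw count and an FPKM for each locus. The deposited raw counts are not whole and were treated like expected counts: dividing each sample's values by 1 step, estimated from the values themselves, gave whole numbers within a tolerance of 0.02 for 99.2% to 99.4% of positive values. They were taken as fragments, although how the authors scaled the column is not given in the sources used here. These were rounded, filtered with filterByExpr, scaled with TMM and tested with edgeR 4.0.16 (quasi-likelihood, no covariate; R 4.3.3) over all loci with Benjamini-Hochberg adjustment at 0.05. The script was tested on simulated data. CPM uses TMM-scaled library sizes. FPKM as the authors deposited it served only for levels per length. Ratios were formed from CPM + 0.5; an exact permutation test of them (252 splits) was run, but the one reported is given with no p because its genes already separate the groups in opposite directions.

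The library kit does not mark strand, so overlapping antisense reads cannot be told apart. Of the 10 enzyme genes chosen, 2 are not reported here, nor are a few list genes, and counts and medians leave them out; the loci tested do not. All other members are named; from each pathway list, genes past the threshold are named, up to the 4 with the largest absolute change in each direction, and a few others were named after their values were seen. The members and lists were chosen with earlier results of these data known. Alternatives were DESeq2 1.42.0, limma 3.58.1 (voom), other scalings and filters, ribosomal status, a replicate block and leaving out each sample. List genes not matched by symbol were not analysed here. Intervals of depth cover counting error only.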

Additional observations from a re-analysis of the deposited data

How the results depend on the processing

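Of 192 values of the 8 members over 24 alternatives, 183 kept their direction and side of the threshold, 2 lost a call, 3 gained one and 4 changed sign. The sign changes were of uncalled genes: Asl was 0.0070 with the ribosomal loci at 0, and Oat was -0.032 with library-size scaling, -0.036 with the ribosomal loci present and -0.0068 without JHU083 replicate 3 (-0.0068 to 0.082 with 1 sample left out). Loci higher and lower numbered 532 and 586 among the 5 samples with the ribosomal loci at 0, and 1274 and 1545 among the 5 others; the cause of the gap between these sets was not tested. Leaving out 1 sample gave 1823 to 2895 higher and 1899 to 2929 lower loci, with 5 to 6 members called. In the ribosomal sets, with loci at 0 and then present, the difference in Sat1 to Odc1 was 0.83 and 1.05, and leave-one-out gave 0.82 to 1.00. The cause of the sign changes was not tested. Same-numbered samples did not deviate together (mean correlation -0.19). With the replicate block, 1612 loci were higher, 1757 lower and 5 members called. The mean paired ratio difference was 0.93, which equals the unpaired difference by arithmetic and so is no check of it.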

Other observations

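JHU083 replicate 2 had the lowest CPM of its group for 6 of the 8 members, and vehicle replicate 3 likewise for 6 of 8.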
